A study of Homo sapiens with 6 samples.

Results

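The comparison described here sets the first guide RNA against DDX6, labelled sgDDX6.1, beside the control guide, labelled sgNS, in Mono-mac-6 cells. Mono-mac-6 is an established human acute myeloid leukemia (AML) line of the monocytic kind, and it carries the MLL-AF9 fusion gene. All cells came from 1 clone expressing Cas9, the nuclease that cuts DNA where its guide directs it, so the groups share that clone and differ in the lentiviral guide. Infected cells were selected over 1 to 2 weeks in blasticidin at 10 µg/ml together with hygromycin B at 200 µg/ml. The labels put the harvest at day 8 after infection, which the longer selection does not allow, so the day is uncertain. Every group grew in the same medium, which held added glutamine, non-essential amino acids, pyruvate and insulin. Poly(A)+ RNA was sequenced from 2 libraries each of sgNS, sgDDX6.1 and a second DDX6 guide, sgDDX6.2. The sgDDX6.2 libraries enter only to estimate the spread and to show where the guides part. The design text states that loss of the protein was checked by Western blot, which is not analysed here. The genes described were those with at least 1 TPM (transcript level scaled to length and library) in at least 2 of the 4 sgNS and sgDDX6.1 libraries, which 11036 of the 18806 genes in the deposited table met (58.7%).

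DDX6 is a DEAD-box RNA helicase of the cytoplasm. It links the CCR4-NOT deadenylase and the decapping enzymes to mRNAs that are to be silenced, represses their translation, and is a core component of P-bodies, the granules in which repressed mRNAs and decay factors collect.

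TPM values are scaled to a transcript's length and to 1000000 in each library, so levels can be compared between genes, and a value is a share of the mRNA and not an amount per cell. Between 10794 and 11007 genes reached 1 TPM in each of the 4 libraries. Across the genes tested, the Pearson correlation of log2(TPM + 1) was 0.9979 between the sgNS libraries, 0.9981 between the sgDDX6.1 libraries and 0.9721 to 0.9742 between libraries of different groups. Whether libraries of 1 group were grown as separate cultures is not stated, so p-values here cover only the spread among these libraries, which may be technical. The monocytic label was checked on 9 defining markers. Lysozyme (LYZ) was at 10031 and 9531 against 14408 and 13819 TPM in the sgNS against the sgDDX6.1 libraries, and the lysosomal marker CD68 was at 222 and 227 against 273 and 279.7 TPM, whereas CD14 (1.36 and 1.18 against 0.37 and 0.77 TPM), CSF1R (0.71 and 0.98 against 1.79 and 2.16 TPM) and ITGAM (3.88 and 4.53 against 2.89 and 2.72 TPM) were low in all 4. Of 29 markers of T, B, erythroid, megakaryocytic, epithelial, fibroblast and endothelial cells, 23 stayed below the filter, and CD3D, CD3E, CD3G, CD2, MS4A1, HBB, GATA1, PF4, CDH1, CDH5 and KDR were listed at 0 in all 4 libraries. The summed share of these 29 markers was 0.00938% and 0.00920% with sgNS and 0.0154% and 0.0151% with sgDDX6.1, most of it from PECAM1 (66.9 and 64.6 against 139 and 135 TPM), an adhesion molecule that monocytes also carry.

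DDX6 itself lies on chromosome 11 (chr11:118747766-118791149, minus strand, GRCh38). Its mRNA measured 102 and 99.5 TPM with sgNS and 54.4 and 51.97 TPM with sgDDX6.1. Both sgDDX6.1 libraries lay below both sgNS libraries, and the fall was 0.91 (SE 0.05) on the log2(TPM + 1) scale (limma, adjusted p = 2.2e-08), with a mean of 53.2 against 101 TPM. In bulk libraries, fewer cells with the mRNA and less mRNA per cell cannot be told apart, here and for every gene below. The mRNA level does not report on the protein, since a frameshift can leave the transcript in place.

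A gene is said below to have risen or fallen where the moderated test of limma, fitted over all 6 libraries on log2(TPM + 1), gave an adjusted p under 0.05 for sgDDX6.1 minus sgNS. Changes are log2 fold changes on that scale, which understate the change of genes near 1 TPM, and n was 2 libraries in each group. With sgDDX6.1, 6861 of the 11036 genes changed (62.2%). Of these, 3541 rose (32.1%) and 3320 fell (30.1%). Most changes were small: 4932 of the 6861 (71.9%) were under 0.5 on the log2 scale, and the median over all genes tested was 0.01. The large changes were mostly falls. At least 2-fold falls were met by 289 genes (2.62%) and at least 2-fold rises by 89 (0.806%), at least 4-fold changes by 59 and 4, and at least 8-fold changes by 23 and 0. Counts of gene lists below are to be read against these shares. The lists were chosen with earlier results of these data known, so their counts and medians are a description and not a test.

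**Figure D1:**
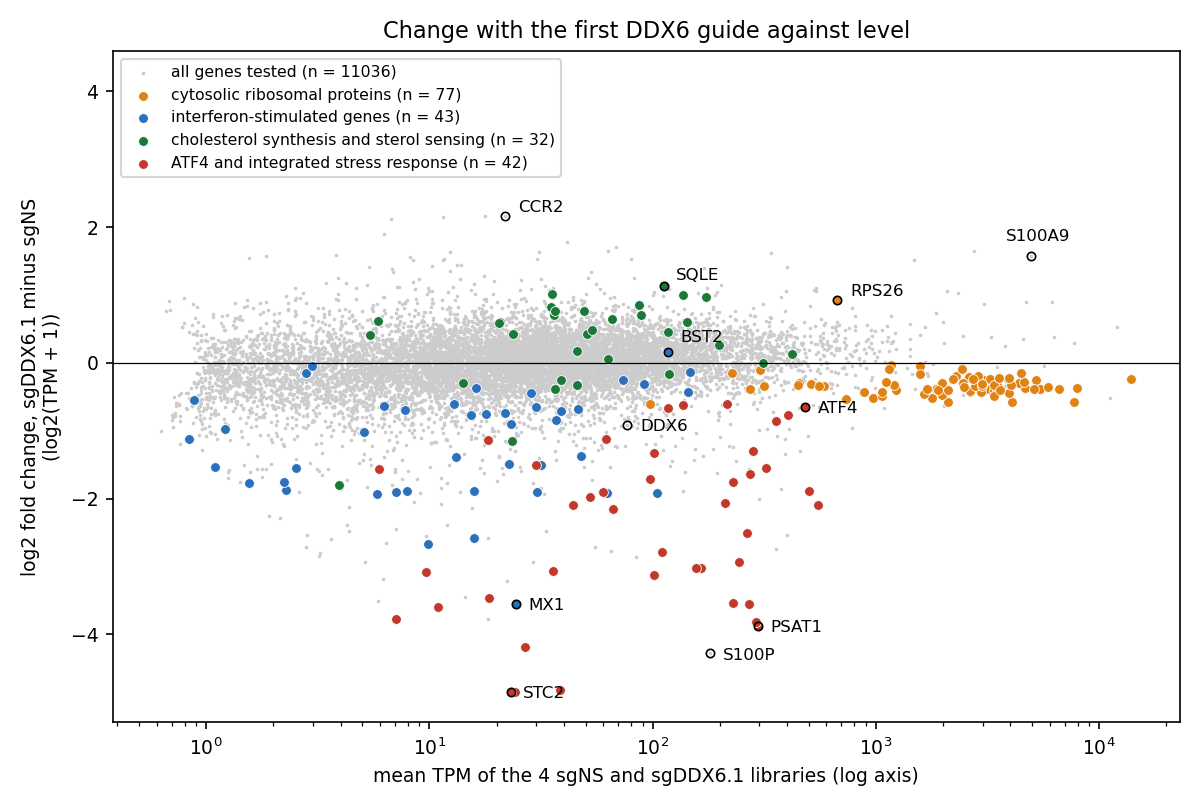
Log2 fold change (sgDDX6.1 minus sgNS, on log2(TPM + 1), vertical axis) against the mean TPM of the 4 libraries (log axis) for the 11036 genes tested, 1 point a gene, with 4 gene lists coloured and single genes ringed. The genes of the ATF4 list lie far below the line at 0, the ribosomal protein genes form a band just below it at the highest levels, and RPS26 stands above it at 0.93.

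The largest changes were ranked among genes of at least 5 TPM on average whose groups did not overlap. GDF15, a secreted stress cytokine, measured 46.8 and 48.4 TPM with sgNS and 0.80 and 0.58 TPM with sgDDX6.1, and STC2, the secreted glycoprotein stanniocalcin, measured 45.1 and 46.1 TPM with sgNS and 0.58 and 0.66 TPM with sgDDX6.1. CHAC1, which breaks down glutathione, went from 70.9 and 79.4 TPM to 1.93 and 1.48 TPM. The log2 fold changes of these genes were -4.85 (SE 0.09), -4.85 (SE 0.10) and -4.82 (SE 0.11), with adjusted p from limma of 3.41e-12, 6.01e-12 and 1.14e-11, and in TPM itself the means were 69-fold, 73.5-fold and 44.1-fold lower. S100P, a calcium-binding protein, fell from 327 and 362 TPM to 16.6 and 16.9 TPM (-4.28 (SE 0.07)). Next came ALDH1L2 of the mitochondrial folate pathway (-4.19), the serine enzyme PSAT1 (-3.88), the pseudokinase TRIB3 (-3.82), the endoplasmic reticulum (ER) chaperone CLGN (-3.78) and the glycine transporter SLC6A9 (-3.78). The 15 largest falls also held ADM2 (-3.60), a secreted peptide, ASNS (-3.56), asparagine synthetase, MX1 (-3.55), an interferon-induced antiviral GTPase, PHGDH (-3.54), the first enzyme of serine synthesis, and CTH (-3.46), which makes cysteine. MX1, S100P and CLGN were among the members outside the ATF4 list.

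The largest rises were smaller than the largest falls. CCR2, the receptor for the monocyte chemokine CCL2, measured 7.69 and 6.96 TPM with sgNS and 37.3 and 35.4 TPM with sgDDX6.1 (2.17 (SE 0.07)). Haptoglobin (HP), which binds free hemoglobin, measured 5.6 and 6.08 TPM with sgNS and 27.8 and 31.4 TPM with sgDDX6.1 (2.16 (SE 0.08)). CHI3L1, a chitinase-like secreted protein, measured 3.48 and 3.71 TPM with sgNS and 20 and 18.98 TPM with sgDDX6.1 (2.16 (SE 0.08)). EPAS1, the hypoxia-inducible factor HIF-2α, rose from 1.87 and 1.87 TPM to 12.2 and 10.9 TPM. In these 4 genes the sgDDX6.1 libraries averaged 4.96, 5.07, 5.42 and 6.17 times the sgNS mean in TPM. Far more abundant were the calprotectin subunits S100A8 (1331 and 1314 against 4040.5 and 4247 TPM) and S100A9 (2489 and 2481 against 7205 and 7605 TPM), with changes of 1.65 and 1.57. TFRC, the transferrin receptor that takes up iron, rose from 169.5 and 163 TPM to 530.4 and 495 TPM (1.62 (SE 0.04)). The others were WNT7B (1.90), a Wnt ligand, ADAMTS1 (1.78) and MMP2 (1.63), secreted metalloproteases, GPR183 (1.71), an oxysterol receptor, P2RY2 (1.65), a nucleotide receptor, DEFB1 (1.64), a defensin, CD36 (1.56), a scavenger and fatty acid receptor, and BARX1 (1.54), a homeobox factor.

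**Figure D2:**
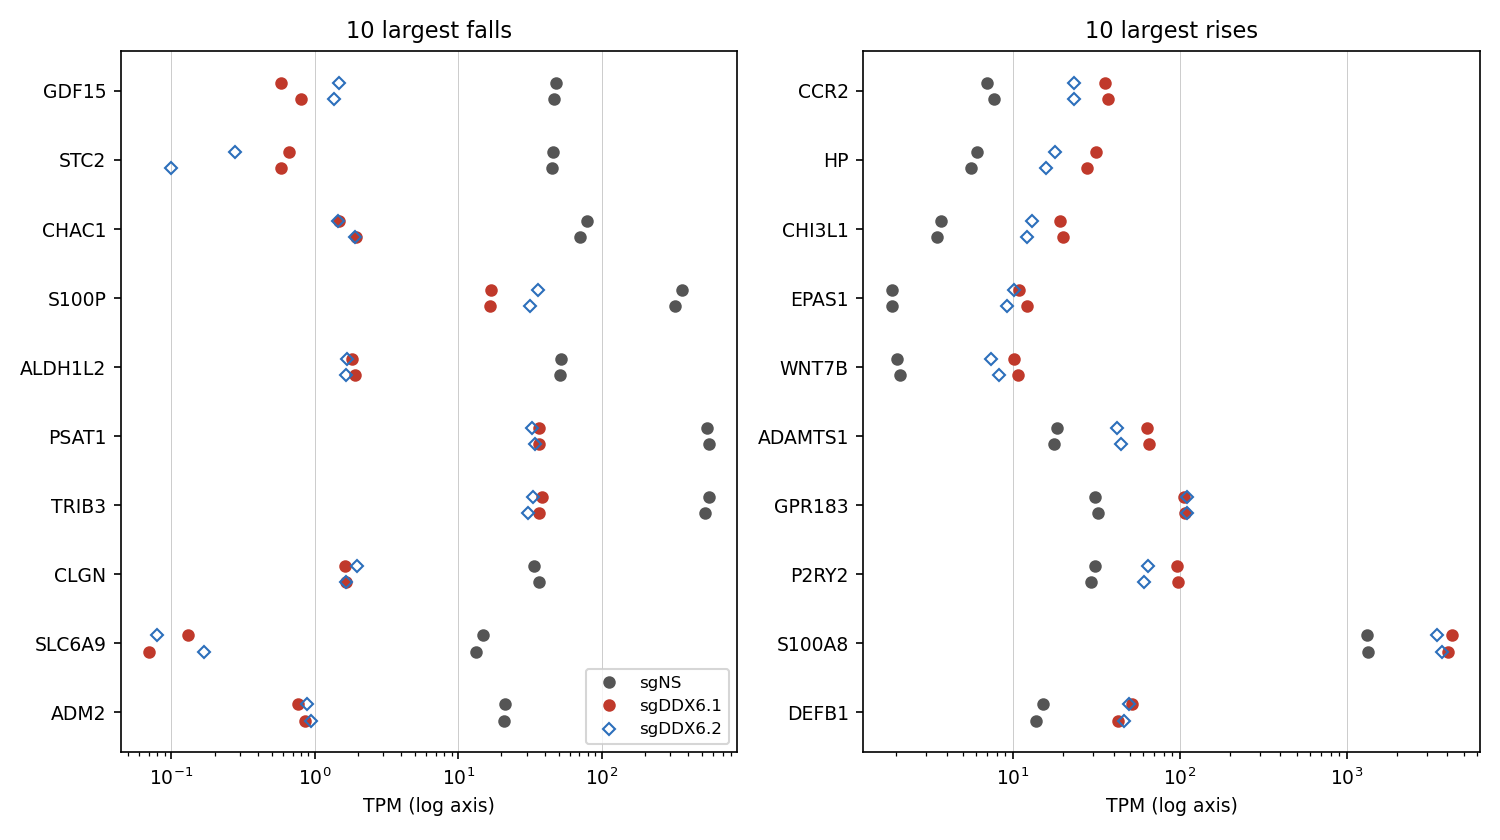
TPM of each of the 6 libraries (log axis; grey points sgNS, red points sgDDX6.1, open blue diamonds sgDDX6.2) for the 10 genes with the largest fall and the 10 with the largest rise with sgDDX6.1, among genes of at least 5 TPM on average whose sgNS and sgDDX6.1 libraries do not overlap. The falls reach from 46.8 and 48.4 TPM to 0.80 and 0.58 TPM in GDF15, and the rises from 7.69 and 6.96 TPM to 37.3 and 35.4 TPM in CCR2.

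ATF4 is the transcription factor at the centre of the integrated stress response. Kinases that sense missing amino acids, unfolded proteins, heme lack or viral RNA phosphorylate the initiation factor eIF2, general translation slows, and translation of ATF4 rises. ATF4 then switches on genes for amino acid uptake and synthesis, tRNA charging and, under lasting stress, cell death. Of its list of 43 genes 42 could be tested, and all 42 fell with sgDDX6.1, 36 by at least 2-fold, and their median was -2.09 against 0.01 over all genes. The list took up 1.07% and 1.09% of all TPM with sgNS and 0.304% and 0.301% with sgDDX6.1. FGF21 stayed below the filter.

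Among the regulators, ATF4 mRNA itself fell only mildly, from 587 and 589.5 TPM to 366 and 381 TPM (-0.65 (SE 0.04)), and PPP1R15A, which directs the phosphatase of eIF2, changed by -0.62. Factors that act downstream fell further. TRIB3, an inhibitor of ATF4, measured 526 and 559 TPM with sgNS and 36.3 and 38.5 TPM with sgDDX6.1. SESN2, a leucine sensor upstream of mTORC1, measured 176 and 189 TPM with sgNS and 19.6 and 20.5 TPM with sgDDX6.1 (-3.13), and DDIT4, another restraint on mTORC1, measured 432 and 466 TPM with sgNS and 76.7 and 78.8 TPM with sgDDX6.1 (-2.51). The partner factors ATF5 (-2.93), CEBPB (-2.15), DDIT3 (-1.71), CEBPG (-1.33) and ATF3 (-1.13) fell as well, as did the translation inhibitor EIF4EBP1 (775 and 806 against 210.3 and 216 TPM, -1.89). Among secreted factors, VEGFA, the vascular growth factor, fell from 273 and 284 TPM to 33.6 and 32.9 TPM (-3.03 (SE 0.05)).

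The enzymes of serine synthesis and mitochondrial one-carbon metabolism fell from high levels. PHGDH measured 413 and 431 TPM with sgNS and 34.9 and 35.9 TPM with sgDDX6.1, and PSAT1, the next step, 563 and 543 TPM with sgNS and 36.8 and 36.5 TPM with sgDDX6.1. The last step, PSPH, measured 96.5 and 94.1 TPM with sgNS and 24.6 and 24.8 TPM with sgDDX6.1 (-1.91 (SE 0.06)). All 3 steps of the pathway were lower in both sgDDX6.1 libraries. Downstream of serine, SHMT2 went from 405 and 418 to 129 and 135 TPM (-1.63 (SE 0.04)), MTHFD2 from 915 and 873 to 217 and 202 TPM (-2.09 (SE 0.05)), and ALDH1L2 from 51.2 and 51.7 to 1.92 and 1.83 TPM. ASNS measured 500.5 and 491 TPM with sgNS and 43.3 and 39.1 TPM with sgDDX6.1. Around it, the transsulfuration enzymes CBS (285 and 301 against 35.2 and 35.4 TPM) and CTH (34.6 and 34.96 against 2.27 and 2.23 TPM), the alanine aminotransferase GPT2 (-3.07) and the mitochondrial PEP carboxykinase PCK2 (-2.79) fell too. Reads of CBS can be shared with its near-identical copy CBSL, so its level is uncertain.

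All 9 amino acid transporters tested fell. SLC6A9 fell from 13.3 and 14.9 TPM to 0.07 and 0.13 TPM. The cystine importer SLC7A11 (74.9 and 69.2 against 17.4 and 14.7 TPM) and the large neutral amino acid carrier SLC7A5 (328 and 352 against 79.7 and 80.2 TPM), fell by 2.10 and 2.07, and SLC3A2, the heavy chain of both, fell by 1.29 (385 and 413 against 162 and 163 TPM). SLC38A2 (-1.76) and SLC7A1 (-1.55) lay between these, and the glutamine carrier SLC1A5 (-0.77), SLC43A1 (-0.67) and SLC1A4 (-0.61) changed least.

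ATF4 with a C/EBP partner binds a composite element, searched here as TGATGNAA on both strands of the 250 bases before the gene start in RefSeq promoters (GRCh38.p14). A promoter was at hand for 9192 of the 11036 genes. The letters occurred in 4 of 34 list members (11.8%), in 126 of all 9192 promoters (1.37%), in 16 of the 216 promoters of genes that fell at least 2-fold (7.41%) and in 1 of the 70 of genes that rose at least 2-fold (1.43%). The windows below show the match in these 4 members and in S100P, the largest fall outside the list, with the element in capitals (as its reverse complement in CHAC1, HERPUD1 and S100P). A match is a description of letters, not evidence of binding.
CHAC1 chr15:40953236-40953295 (plus strand): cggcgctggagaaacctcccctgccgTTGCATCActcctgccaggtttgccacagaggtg
ASNS chr7:97872443-97872502 (minus strand): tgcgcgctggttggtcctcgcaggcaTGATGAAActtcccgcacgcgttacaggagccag
ATF3 chr1:212565190-212565249 (plus strand): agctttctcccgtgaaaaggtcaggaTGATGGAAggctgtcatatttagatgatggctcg
HERPUD1 chr16:56931940-56931999 (plus strand): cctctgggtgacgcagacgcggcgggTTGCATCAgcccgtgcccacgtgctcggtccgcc
S100P chr4:6693729-6693788 (plus strand): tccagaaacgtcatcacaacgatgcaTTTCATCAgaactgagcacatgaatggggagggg
The levels of HERPUD1, an ER protein degradation factor, were 85.4 and 83.7 TPM with sgNS and 20.5 and 20.8 TPM with sgDDX6.1 (-1.98), and those of ATF3 were 25.3 and 25.6 TPM with sgNS and 11.3 and 10.9 TPM with sgDDX6.1. Of the 5 genes shown, ATF3 had the smallest change (-1.13) and CHAC1 the largest (-4.82).

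The aminoacyl-tRNA synthetases, which charge tRNAs with amino acids, split by compartment. Of 20 cytosolic enzymes 14 fell and 4 rose, with a median of -0.92. Of 16 mitochondrial ones 1 fell and 12 rose, with a median of 0.25. WARS, the tryptophan enzyme, fell most, from 620.3 and 625 TPM to 91.9 and 92.96 TPM (-2.74 (SE 0.04)). GARS (591 and 583 against 163 and 159.6 TPM, -1.86), SARS (295 and 293 against 94.7 and 94.9 TPM, -1.62) and CARS (175 and 181 against 60.98 and 62.3 TPM, -1.51) followed, for glycine, serine and cysteine. In the other direction stood the cytosolic FARSA (0.48), RARS (0.33), VARS (0.19) and KARS (0.18), and the largest rise was the mitochondrial leucine enzyme LARS2 (12.1 and 12.1 against 23.4 and 22.04 TPM, 0.86). GARS and KARS each serve both compartments. HARS (-0.04) and QARS (-0.09) did not pass the test.

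Interferons signal through JAK kinases to STAT proteins and IRF9, which together switch on antiviral genes. Of 43 interferon-stimulated genes tested, 40 fell and 1 rose, with a median of -0.97. By role, 25 of 26 antiviral effectors fell (median -1.52), all 5 of the ubiquitin-like ISG15 system (-0.69), all 5 nucleic acid sensors (-0.97) and all 4 transcription factors (-0.70). Of the 3 guanylate-binding proteins and chemokines tested, only CXCL10 fell, and the other 2 did not pass the test (median -0.15). MX1 measured 45.3 and 45.9 TPM with sgNS and 2.69 and 3.28 TPM with sgDDX6.1. IFI6, an antiviral membrane protein, measured 97.6 and 101 TPM with sgNS and 24.6 and 26.6 TPM with sgDDX6.1 (-1.92 (SE 0.05)), and XAF1, a pro-apoptotic interferon-induced protein, 47.3 and 49.8 TPM with sgNS and 12.9 and 11.6 TPM with sgDDX6.1 (-1.91 (SE 0.07)). Each was lower in both sgDDX6.1 libraries than in either sgNS library. The DNA sensor IFI16 fell from 169 and 162 TPM to 41.7 and 44.8 TPM (-1.91 (SE 0.05)), and CXCL10, an interferon-induced chemokine, from 29.2 and 26.3 TPM to 4.16 and 3.45 TPM (-2.58 (SE 0.11)). The RNA sensors DDX58 (RIG-I, -0.60) and IFIH1 (MDA5, -0.91) fell less. Among the factors IRF9 fell most (46.5 and 48.05 against 15.9 and 16.2 TPM, -1.50), ahead of IRF1 (-0.73) and STAT2 (-0.68). Of the interferon receptor chains, IFNAR1 (29.1 and 29.02 against 35.3 and 34.3 TPM, 0.25), IFNAR2 (0.41) and IFNGR1 (0.45) rose, and IFNGR2 was at 83.3 and 81.3 against 80.9 and 79 TPM (-0.04, not past the test). BST2 (tetherin), which holds budding virus at the cell surface, was the riser (109.6 and 111 against 124 and 122 TPM, 0.16), a call lost under quantile normalization, where limma gave an adjusted p of 0.0622. RSAD2, ZBP1, GBP1, GBP5 and CXCL9 stayed below the filter. Members near 1 TPM may have passed it only through the sgNS libraries, where they were higher, which favours a fall. With a filter of 5 TPM in place of 1 TPM, 32 of 33 members fell, with a median of -0.84.

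The interferon-stimulated response element was searched as GAAANNGAA in the same promoters. Copies can overlap each other, since a run of GAAA blocks holds several. The letters occurred in 19 of 33 list members (57.6%), in 522 of all 9192 promoters (5.68%), in 25 of the 216 of genes that fell at least 2-fold (11.6%) and in 5 of the 70 of genes that rose at least 2-fold (7.14%). The windows show members that fell by much and by little, and BST2, the member that rose, with the element in capitals (as its reverse complement in IFIT1).
IFITM1 chr11:313974-314033 (plus strand): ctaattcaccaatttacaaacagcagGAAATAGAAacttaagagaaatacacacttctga
CXCL10 chr4:76023685-76023744 (minus strand): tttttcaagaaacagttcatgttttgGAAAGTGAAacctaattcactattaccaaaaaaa
IFIT1 chr10:89392495-89392554 (plus strand): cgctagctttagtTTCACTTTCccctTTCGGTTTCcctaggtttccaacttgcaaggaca
IFI44L chr1:78620349-78620408 (plus strand): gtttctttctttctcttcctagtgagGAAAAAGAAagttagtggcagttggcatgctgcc
ISG15 chr1:1013370-1013429 (plus strand): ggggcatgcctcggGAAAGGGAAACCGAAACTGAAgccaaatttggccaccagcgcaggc
BST2 chr19:17405721-17405780 (minus strand): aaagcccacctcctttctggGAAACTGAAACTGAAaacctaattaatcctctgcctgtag
IFITM1, which blocks virus entry, measured 18.5 and 16.9 TPM with sgNS and 1.41 and 2.59 TPM with sgDDX6.1 (-2.67), and IFIT1, which binds viral RNA ends, 3.78 and 4.52 TPM with sgNS and 0.35 and 0.44 TPM with sgDDX6.1 (-1.88). IFI44L was low throughout (1.97 and 2.27 against 0.10 and 0.05 TPM, -1.54), and ISG15, the ubiquitin-like protein, measured 18.8 and 20.4 TPM with sgNS and 9.85 and 12.3 TPM with sgDDX6.1 (-0.78). IFIT1 and IFI44L passed the filter only through the sgNS libraries, so the filter favoured a fall in them. The median change of the 19 list members with the letters was -1.13, and that of the 14 without them -0.79. The 19 held IFIT1 and IFI44L, and also AIM2, which averaged only 1.21 TPM over the 4 libraries. Both medians can thus hold falls that the filter favoured, so nothing is read from their difference. IFITM1 shares much of its sequence with IFITM2 and IFITM3, so reads may have been split between them.

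NF-kB, the other main inflammatory factor family, gave a mixed picture. Of 29 genes of its subunits, inhibitors and targets 15 fell and 5 rose (median -0.26). The noncanonical subunits RELB (17.04 and 18.4 against 6.71 and 7.3 TPM, -1.23) and NFKB2 (18.5 and 18.2 against 8.11 and 8.89 TPM, -1.03) fell, whereas RELA (0.18) and NFKB1 (0.12) of the canonical pathway rose slightly. The neutrophil chemokines CXCL2 (7.58 and 7.95 against 2.0 and 2.52 TPM, -1.43) and CXCL8 (155 and 149 against 82.95 and 74.01 TPM, -0.95) fell, and their relative CXCL1 rose at a low level (1.78 and 2.5 against 4.04 and 3.68 TPM, 0.64). IER3, an early response gene, fell from 60.1 and 61.3 TPM to 28.2 and 25.2 TPM (-1.16). IL1B was at 41.1 and 40.7 against 37.2 and 39.7 TPM and did not pass the test (-0.09). In antigen presentation 4 of the 11 genes tested rose and 4 fell. Of the 24 genes listed only 13 were in the deposited data, and only 2 of class II were tested. CD74, the class II invariant chain, fell from 143 and 147 TPM to 84.3 and 85.2 TPM (-0.77), and HLA-E fell by 0.33, whereas the immunoproteasome subunit PSMB10 (0.44) and the peptide transporter TAP1 (0.31) rose. B2M, the class I light chain, was at -0.05 and did not pass the test.

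**Figure D3:**
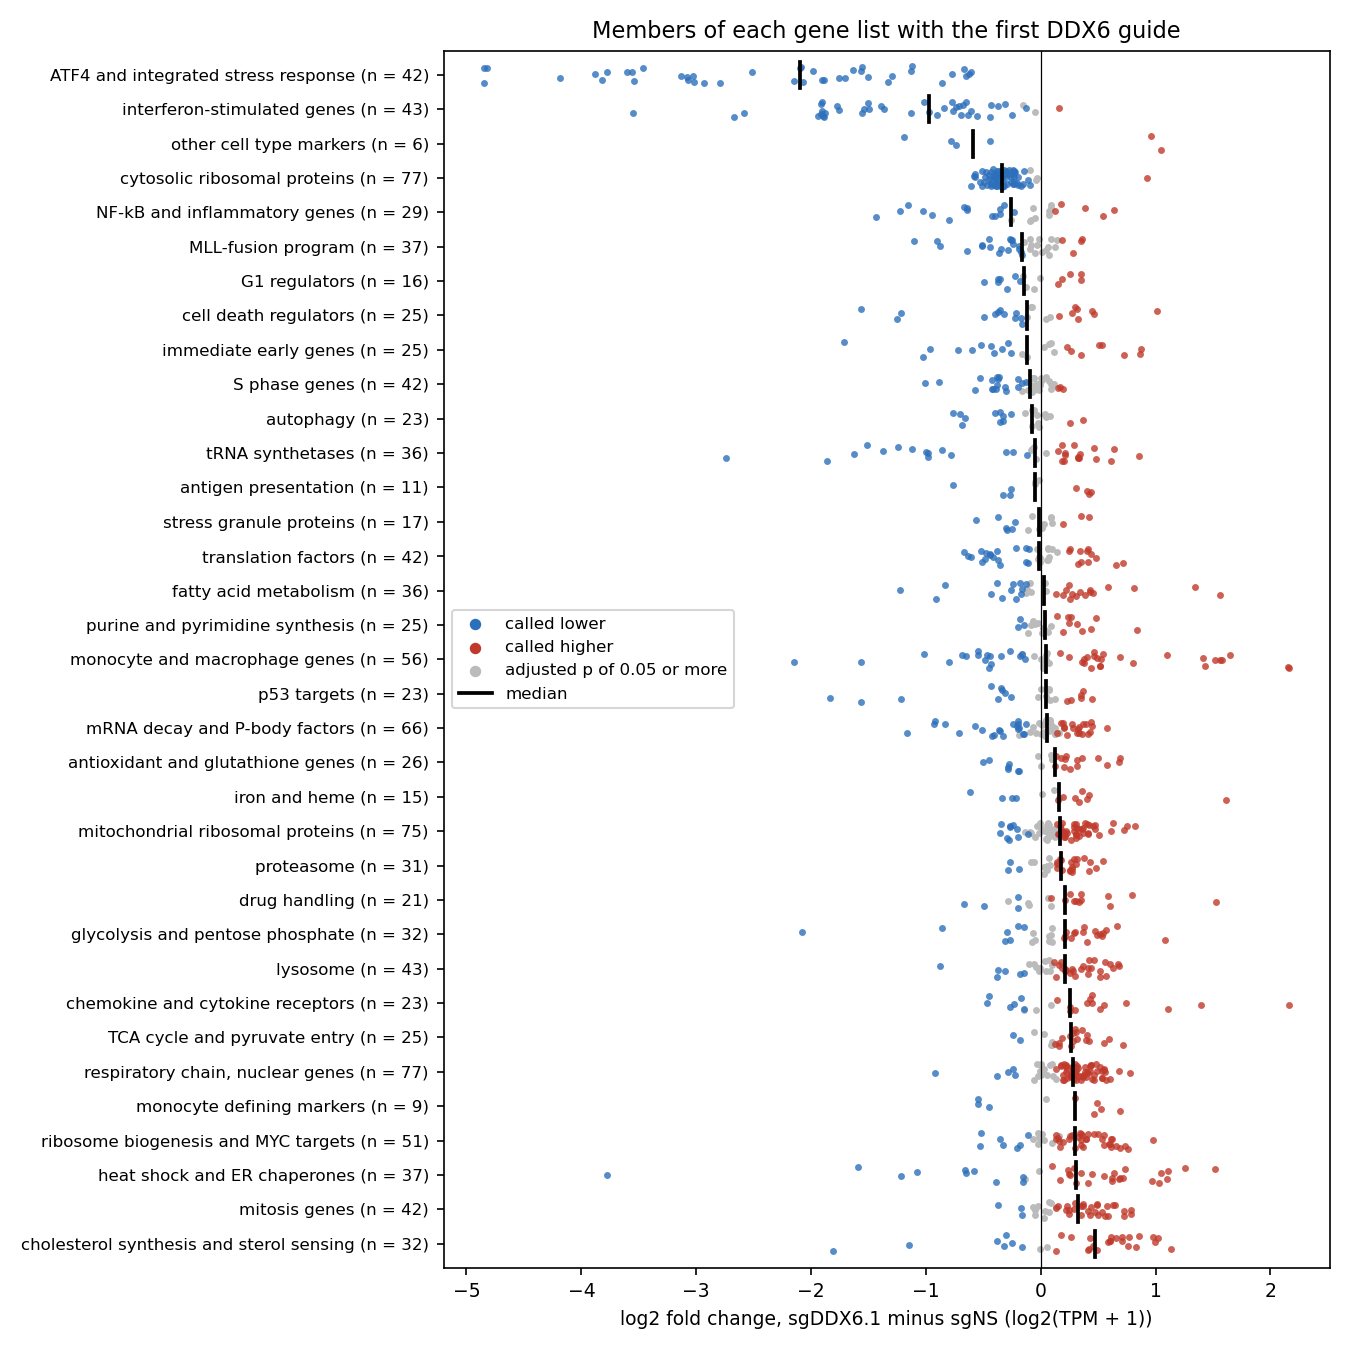
Log2 fold change (sgDDX6.1 minus sgNS) of every tested member of each gene list, 1 row a list and 1 point a gene, blue where it fell, red where it rose and grey where it did not pass the test, with a bar at the median of the list and a line at 0. The ATF4 and interferon-stimulated lists lie to the left, the cholesterol, ribosome biogenesis and mitosis lists lean to the right, and RPS26 is the 1 gene that rose among the cytosolic ribosomal proteins.

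The translation machinery moved in parts. Cytosolic ribosomal protein mRNAs, which carry a terminal oligopyrimidine start that ties their translation to growth signals, fell in 73 of 77 cases, 46 of 47 of the large and 27 of 30 of the small subunit, with a median of -0.34. Together they held 23.7% and 23.8% of all TPM with sgNS and 18.4% and 19.2% with sgDDX6.1. RPS27 measured 9227 and 9166 TPM with sgNS and 6162 and 6156 TPM with sgDDX6.1 (-0.58), and RPL26 2533 and 2486 TPM with sgNS and 1652 and 1720.2 TPM with sgDDX6.1 (-0.57). RPS26 rose against the others, from 457 and 468 TPM to 871 and 891 TPM (0.93 (SE 0.04)). Ribosomal protein genes have many near-identical pseudogenes, so single levels are uncertain. The elongation factors EEF1A1 (13239.7 and 13033 against 9188 and 9174 TPM, -0.52) and EEF2 (2382 and 2519.6 against 1574 and 1590.2 TPM, -0.63) fell with the ribosomal proteins, and of 7 elongation and termination factors 5 fell and 0 rose. Of 35 initiation factors 12 rose and 13 fell, with EIF1, which guards start codon choice, at -0.67 and EIF5, its counterpart, at 0.72.

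Factors that build ribosomes rose where the ribosomal proteins fell. Of 51 genes for nucleolar factors, RNA polymerases I and III and the MYC network 35 rose and 7 fell (median 0.30), and 29 of the 36 nucleolar factors rose. GNL3 (nucleostemin) measured 140.4 and 139 TPM with sgNS and 216 and 207 TPM with sgDDX6.1 (0.60), LTV1, a small-subunit assembly factor, 123 and 123 TPM with sgNS and 195 and 182 TPM with sgDDX6.1 (0.61), and SRM, spermidine synthase, 167 and 179 TPM with sgNS and 291 and 295 TPM with sgDDX6.1 (0.76). UTP20 of the small-subunit processome had the largest rise of the list (8.6 and 8.52 against 18.8 and 17 TPM, 0.98). MYC itself, which drives such genes, fell from 359.8 and 369.5 TPM to 264 and 245 TPM (-0.52), and its antagonist MXD1 fell by 0.53. The E-box CACGTG that MYC binds occurred in 6 of 42 promoters of the list (14.3%) and in 862 of all 9192 (9.38%). Mitochondrial ribosomal proteins rose in 41 of 75 cases and fell in 10 (median 0.16), with MRPS12 (31.96 and 39.03 against 57.97 and 69.1 TPM, 0.82) and MRPS7 (0.75) at the top and MRPS31 (-0.36) at the bottom.

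Nuclear genes of the respiratory chain, which passes electrons to oxygen and drives ATP synthesis, rose in 58 of 77 cases and fell in 5 (median 0.28). All 4 genes of complex II rose, 9 of 10 of complex III, 10 of 12 of complex IV, 13 of 16 of ATP synthase and 22 of 35 of complex I, with medians between 0.22 and 0.33. ATP5A1, the catalytic-core α subunit of ATP synthase, measured 789.9 and 799 TPM with sgNS and 1097 and 1116 TPM with sgDDX6.1 (0.48), UQCRQ of complex III 56.7 and 61.9 TPM with sgNS and 96.3 and 108 TPM with sgDDX6.1 (0.78), and COX6B1 of complex IV 481 and 469 TPM with sgNS and 672 and 722 TPM with sgDDX6.1 (0.55). These rises were of modest size, and each was present in both libraries. COX7A2L, which joins complexes III and IV into supercomplexes, went the other way (143 and 164 against 78.9 and 82.4 TPM, -0.92). In the tricarboxylic acid (TCA) cycle and pyruvate entry, 18 of 25 genes rose and 2 fell (median 0.27). Pyruvate carboxylase (PC) rose most (11.97 and 13.4 against 21.5 and 21.4 TPM, 0.72), followed by OGDH (0.59), and DLD (-0.24) and DLST (-0.18), components of the oxoacid dehydrogenases, fell.

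In glycolysis and the pentose phosphate pathway 17 of 32 genes rose and 7 fell (median 0.21). Several enzymes of the later steps rose, with PKM at 1129 and 1148 against 1677 and 1708 TPM (0.57), PGAM1 at 514 and 527 against 746 and 762 TPM (0.53), PGK1 at 0.49 and LDHA, which makes lactate, at 665 and 648 against 951 and 959.9 TPM (0.54). GAPDH did not pass the test (-0.06), nor did the first enzyme HK2 (0.09). Hexose carriers parted: SLC2A3, a high-affinity glucose carrier, fell from 19.1 and 18.4 TPM to 3.98 and 3.39 TPM (-2.08), whereas the fructose carrier SLC2A5 rose from 16.5 and 19.6 TPM to 39.3 and 38.9 TPM (1.08) and SLC2A1 by 0.21.

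Genes of cholesterol synthesis rose nearly along the whole pathway. When ER cholesterol is low, SCAP carries SREBP2 to the Golgi for cleavage, and the freed factor switches on these genes. Of 20 synthesis enzymes 19 rose and 0 fell (median 0.68), PMVK (0.05) being the exception. SQLE, squalene epoxidase, measured 71.8 and 67.7 TPM with sgNS and 157 and 151 TPM with sgDDX6.1 (1.13 (SE 0.05)). LSS, which closes the rings, measured 21.97 and 24.01 TPM with sgNS and 46.5 and 48.5 TPM with sgDDX6.1 (1.02). Genes of uptake and sensing did not move as a block: 4 of 12 rose, among them INSIG1 (0.45), and 7 fell. The factor SREBF2 was slightly lower (123 and 128 against 112 and 111 TPM, -0.16), SREBF1 fell from 31.9 and 33.5 TPM to 14.2 and 14.2 TPM (-1.15), and the cholesterol exporter ABCA1 from 7.01 and 6.34 TPM to 1.17 and 1.22 TPM (-1.80 (SE 0.09)). The sterol element TCACCCCAC occurred in the promoter of 1 of 26 list members, SREBF2 (3.85%), and in 33 of all 9192 (0.359%), and the CCAAT box of the factor NF-Y, its frequent neighbour, in 16 of 26 (61.5%) against 3294 of 9192 (35.8%).

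Other lipid, nucleotide and redox genes changed in both directions. In fatty acid metabolism 16 of 36 genes rose and 13 fell, with a median of 0.03 whose sign depended on the processing. CPT1A, which admits fatty acids to mitochondria, rose from 27.8 and 31.1 TPM to 75.98 and 75.8 TPM (1.34 (SE 0.06)), the carnitine carrier SLC25A20 rose by 0.81, and ACSL1, which activates fatty acids, fell from 312 and 304 TPM to 135 and 127 TPM (-1.23 (SE 0.04)). Fatty acid synthase (FASN, 0.43) and ACLY (0.45) rose, whereas the desaturase SCD fell (-0.26). Of 25 genes of purine and pyrimidine synthesis 10 rose and 3 fell, with the guanine nucleotide enzyme IMPDH1 (67.4 and 70.7 against 124 and 124 TPM, 0.84) rising most. Among 26 antioxidant genes 14 rose and 7 fell: GPX1, a glutathione peroxidase, measured 862 and 920.0 against 1386 and 1483 TPM (0.69), HMOX1, heme oxygenase, 11.5 and 10.1 against 17.4 and 18.7 TPM (0.69), and the thioredoxin peroxidase PRDX5 384 and 390.3 against 255 and 291 TPM (-0.50). The factor NFE2L2 (NRF2, -0.27) and its target NQO1 (-0.19) fell slightly. In iron handling, the rise of TFRC stood beside a fall of the ferritin heavy chain FTH1 (4245 and 4195 against 3339 and 3324 TPM, -0.34) and a rise of the light chain FTL (6732 and 7039.6 against 8213 and 8708 TPM, 0.30).

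Chaperones separated by family. Heat shock proteins fold proteins of the cytosol or, for some members, of mitochondria, and 13 of 14 of their genes rose (median 0.63). HSPA8, the constitutive HSP70, measured 768 and 755 TPM with sgNS and 2198 and 2172 TPM with sgDDX6.1 (1.52 (SE 0.03)), HSP90AA1 736 and 719.6 TPM with sgNS and 1525 and 1489 TPM with sgDDX6.1 (1.05), and HSPH1 48.3 and 47.9 TPM with sgNS and 121 and 111 TPM with sgDDX6.1 (1.26). The mitochondrial HSP70, HSPA9, was the member that fell (687 and 671 against 439.7 and 425 TPM, -0.65), while its chaperonin partners HSPD1 (0.55) and HSPE1 (0.97) rose. In the ER, 12 of 23 chaperone and unfolded protein response genes rose and 9 fell (median 0.10). The calcium-binding chaperone CALR (1512 and 1544 against 3128 and 3127 TPM, 1.03) and HSP90B1 (0.69) rose, whereas genes of the IRE1 arm fell: the sensor ERN1 (IRE1, 39 and 39.3 against 12.99 and 11.7 TPM, -1.59), its target XBP1 (487 and 490.5 against 234 and 228 TPM, -1.08) and DNAJB9 (-1.21).

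Genes of protein degradation rose in part. Of 31 proteasome subunits 20 rose and 3 fell (median 0.17), within -0.28 for PSMD14 and 0.54 for PSMD2. Of 43 lysosomal genes 27 rose and 6 fell (median 0.21). Cathepsin C (CTSC), which activates granule proteases, measured 258 and 254 TPM with sgNS and 415 and 408 TPM with sgDDX6.1 (0.68), CTSZ 379 and 375 TPM with sgNS and 569 and 579 TPM with sgDDX6.1 (0.61), and the acid α-glucosidase GAA 27.3 and 29.2 TPM with sgNS and 15.03 and 14.7 TPM with sgDDX6.1 (-0.88). Autophagy genes leaned the other way, with 2 of 23 higher and 10 lower (median -0.08). The starting kinase ULK1 (10.99 and 11.1 against 6.26 and 5.88 TPM, -0.77), the phosphoinositide reader WIPI1 (15.7 and 15.7 against 9.48 and 8.99 TPM, -0.71) and the membrane tag MAP1LC3B (77.4 and 75.5 against 49.3 and 45.1 TPM, -0.68) fell, and ATG16L1 rose (0.37).

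Cell cycle genes split by phase. Of 42 genes of DNA replication 18 fell and 3 rose (median -0.09), and of 42 genes of mitosis 29 rose and 3 fell (median 0.32). In replication, the licensing factor CDT1 (59.5 and 64.6 against 29.4 and 31.2 TPM, -1.01), the primase PRIM1 (112 and 112 against 60.4 and 60.2 TPM, -0.88) and the helicase subunit MCM6 (341 and 343 against 232 and 226 TPM, -0.58) fell, while PCNA (0.01) and MCM3 (-0.05) did not pass the test. TYMS, thymidylate synthase, had the largest rise of that list (0.19), a call lost under quantile normalization (limma, adjusted p = 0.0822). In mitosis, the checkpoint kinase BUB1 (102 and 99.6 against 179 and 170.4 TPM, 0.79), the anaphase activator CDC20 (133 and 136 against 214 and 209 TPM, 0.65), PLK1 (129 and 127 against 193 and 189.9 TPM, 0.58) and the cytokinesis protein ANLN (0.79) rose. The proliferation marker MKI67 rose too (105 and 107 against 165 and 154 TPM, 0.58), CDK1 did not pass the test (0.07), and the phosphatase CDC25C fell (-0.37). Of 16 regulators of the G1 phase 5 rose and 7 fell. The kinases CDK4 (284 and 292 against 233 and 238 TPM, -0.29) and CDK2 (-0.35) fell, and the inhibitor CDKN2C rose (149 and 144 against 188 and 187 TPM, 0.35).

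Monocyte and macrophage genes also moved in both directions, 25 of 56 higher and 18 lower (median 0.05), and divided by the kind of protein. Of 19 surface receptors 12 fell and 4 rose (median -0.27), whereas of 21 secreted, granule or intracellular proteins 14 rose and 3 fell (median 0.44). The integrin ITGAX (5.35 and 5.65 against 2.76 and 2.69 TPM, -0.80), the complement receptor C5AR1 (5.38 and 4.96 against 1.22 and 0.95 TPM, -1.57) and the Fc receptor FCGR1A (-0.54) fell. The receptors that rose were CCR2, CD36, CSF1R (0.69) and CCR1 (0.52). CSF1R was below 1 TPM with sgNS and passed the filter only through the sgDDX6.1 libraries, so the filter favoured a rise in it. CD14 was below 1 TPM with sgDDX6.1 and passed only through the sgNS libraries, so the filter favoured a fall in it. Counts in both directions can hold such genes. Beside S100A8, S100A9 and CHI3L1, the membrane glycoprotein GPNMB (5.46 and 4.79 against 14.8 and 16.1 TPM, 1.43) and LYZ (0.53) rose, and the lipid carrier APOE fell (-0.65). Of the azurophil granule proteins made by early myeloid cells, PRTN3 (proteinase 3) rose from 216 and 217 TPM to 572 and 588 TPM (1.42 (SE 0.04)), ELANE (0.40) and CTSG (0.38) rose less, and MPO fell from 79.7 and 86.7 TPM to 41.5 and 39.6 TPM (-1.02). Among myeloid transcription factors IRF8 (110.0 and 112 against 239 and 237 TPM, 1.10), SPI1 (241 and 244 against 341 and 342 TPM, 0.49) and CEBPA (217 and 228 against 301 and 312 TPM, 0.46) rose, CEBPB, which also stands in the ATF4 list, fell (-2.15), and KLF4 (0.07) did not pass the test.

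MLL fusions keep a stem-cell program of HOXA genes and MEIS1 switched on. Of 37 genes of that program and its complexes 19 fell and 4 rose (median -0.16). HOXA9, the central factor, fell from 108 and 108 TPM to 77.5 and 73.5 TPM (-0.52 (SE 0.05)), and its partner MEIS1 fell by 0.24. PSIP1 (LEDGF), which tethers MLL to chromatin, measured 196 and 173 TPM with sgNS and 88.8 and 81.4 TPM with sgDDX6.1 (-1.11 (SE 0.06)). KMT2A, the gene that encodes MLL and the front part of the fusion, was at 33.7 and 33.4 against 28.8 and 26.01 TPM (-0.28). MYB (0.09) and HOXA5 (-0.08) did not pass the test, and MLLT1 (0.36) and AFF1 (0.35) of the elongation complexes rose. Among 23 chemokine and cytokine receptors 14 rose and 6 fell (median 0.26), with IL6R (91.5 and 94.3 against 251 and 241 TPM, 1.40), CXCR2 (4.24 and 4.29 against 10.3 and 10.5 TPM, 1.11) and TNFRSF1B (0.75) rising and CX3CR1 (-0.47) falling. FLT3, the growth factor receptor of AML blasts, was high and slightly lower with the guide (1542 and 1537 against 1399 and 1342 TPM, -0.17).

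Genes for the machinery in which DDX6 works moved in both directions: of 66 mRNA decay and P-body factors 20 rose and 21 fell (median 0.05), shares near those over all genes. Among partners and decapping factors, ATXN2L (269 and 284 against 175 and 162 TPM, -0.71) fell most, PATL1 (-0.15) and DCP1A (-0.20) fell slightly, and the decapping scaffold EDC4 (31.2 and 32.4 against 40.8 and 41.4 TPM, 0.36) and the 4E-homologous repressor EIF4E2 (0.33) rose. The decapping enzyme DCP2 (0.01) and the 4E-T protein EIF4ENIF1 (0.16) did not pass the test. In the deadenylases the scaffold CNOT1 was at 0.01, whereas the adaptor BTG1 (78.2 and 74.1 against 34.5 and 32.2 TPM, -1.17) and PAN2 (20.6 and 21.9 against 11.04 and 10.4 TPM, -0.92) fell. Of the microRNA effectors AGO1 rose (21.7 and 22.3 against 34.5 and 32.1 TPM, 0.58), and AGO2 (-0.09) did not pass the test. Of 17 stress granule proteins 3 rose and 6 fell. The poly(A)-binding protein PABPC1, itself a terminal oligopyrimidine mRNA, fell from 2491 and 2454 TPM to 1728 and 1612 TPM (-0.57), TARDBP rose (155 and 151 against 212 and 199 TPM, 0.42), and the granule nucleator G3BP1 (0.09) did not pass the test.

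Short-lived immediate early mRNAs did not shift together: 8 of 25 rose and 11 fell (median -0.12). NR4A1, an orphan nuclear receptor, fell from 11.3 and 12.7 TPM to 2.81 and 3.14 TPM (-1.71), and the AP-1 subunits FOSB (94.9 and 100.1 against 163 and 159.6 TPM, 0.72) and JUN (208 and 218 against 303 and 303 TPM, 0.51) rose. Of 25 cell death regulators 8 rose and 12 fell. The pro-apoptotic proteins BBC3 (PUMA, 8.77 and 9.93 against 2.47 and 2.52 TPM, -1.56) and PMAIP1 (NOXA, 74.9 and 64.5 against 29.8 and 27.3 TPM, -1.25) and the death receptor TNFRSF10B (81.6 and 83.3 against 34.99 and 35.04 TPM, -1.21) fell, while BIK rose (11.1 and 13.9 against 25.6 and 26.6 TPM, 1.02). MCL1, on which AML blasts often depend, rose by 0.30, and BCL2 fell by 0.16. Of 23 p53 targets 6 rose and 9 fell, with GADD45A (9.15 and 8.35 against 1.54 and 1.93 TPM, -1.84) at the bottom and TIGAR (0.44) at the top. BBC3 stands in the lists of ATF4, cell death and p53 alike.

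The title of the series names drug resistance, and 21 genes that handle AML drugs were tested, of which 12 rose and 4 fell (median 0.21). For cytarabine, a nucleoside analogue, DCK, which activates it, fell slightly (90.2 and 85.04 against 78.4 and 74.1 TPM, -0.20), the uptake carrier SLC29A1 rose (79.4 and 87.03 against 99.5 and 104 TPM, 0.29), and SAMHD1, which breaks down its active form, rose by 0.21. SLC29A4, a related carrier, rose most (5.16 and 5.8 against 18 and 17.4 TPM, 1.53). Of the ABC transporters ABCC10 (0.61) and ABCB10 (52.1 and 46.1 against 89.5 and 82.5 TPM, 0.80) rose and ABCA3 fell (-0.67), while ABCC1 (-0.10) did not pass the test. ABCB1, ABCG2, ABCC3 and the deaminase CDA stayed below the filter.

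The guides were compared with each other as sgDDX6.2 minus sgDDX6.1. DDX6 mRNA was at 52.3 and 53.5 TPM with sgDDX6.2, a difference of -0.01 (limma, adjusted p = 0.918). The test passed for 3898 of the 11036 genes (35.3%), 1832 higher with sgDDX6.2 (16.6%) and 2066 lower (18.7%). Differences were mostly small, with a median size of 0.13, and 54 were at least 2-fold. The count depended on single libraries: it was 2261 without sgDDX6.2 replicate 1, 2304 without sgDDX6.2 replicate 2 and 2529 without sgDDX6.1 replicate 1. This contrast shares the sgDDX6.1 libraries with the one against sgNS, so a chance deviation in them enters both.

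Several lists differed between the guides. Of 43 interferon-stimulated genes 28 were higher with sgDDX6.2 and 1 lower, and MX1 reached 8.59 and 8.99 TPM there, 1.30 above sgDDX6.1 (limma, adjusted p = 1.56e-06). Of 43 lysosomal genes 30 were higher with sgDDX6.2 and 0 lower, and of 32 cholesterol genes 18 were higher and 0 lower. ABCA1 was at 6.06 and 5.5 TPM with sgDDX6.2 (1.63 above sgDDX6.1). In the other direction, 46 of 51 ribosome biogenesis genes were lower with sgDDX6.2 and 1 higher, and of 42 mitosis genes 38 were lower and 0 higher. Against the shared sgNS libraries, the median of the ribosome biogenesis list was 0.30 with sgDDX6.1 and -0.04 with sgDDX6.2, that of the mitosis list was 0.32 and 0.05, and that of the interferon-stimulated list was -0.97 and -0.75. The first 2 medians were thus near 0 with sgDDX6.2. MKI67 was at 123 and 123 TPM there (-0.37), between its sgNS and sgDDX6.1 levels, and MYC at 178 and 178 TPM (-0.51), below both. Against sgNS, the median of the monocyte and macrophage list was 0.05 with sgDDX6.1 and 0.37 with sgDDX6.2. For the list of DNA replication (S phase) genes it was -0.09 and -0.31. Of 56 monocyte and macrophage genes 28 were higher with sgDDX6.2 and 7 lower, and of 42 replication genes 1 was higher and 21 lower. In the ATF4 list the median difference was -0.05, small beside its median of -2.09 for sgDDX6.1 against sgNS. Still, 7 of its 42 genes were higher with sgDDX6.2 and 13 lower, against 16.6% and 18.7% over all genes. By the largest differences, SERPINI1 (1.79), a serpin, and GPX3 (1.41), a secreted peroxidase, were higher with sgDDX6.2, and FOXD1 (-0.99), a forkhead factor, SLC7A2 (-0.81), an arginine carrier, and HP (-0.78) were lower.

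**Figure D4:**
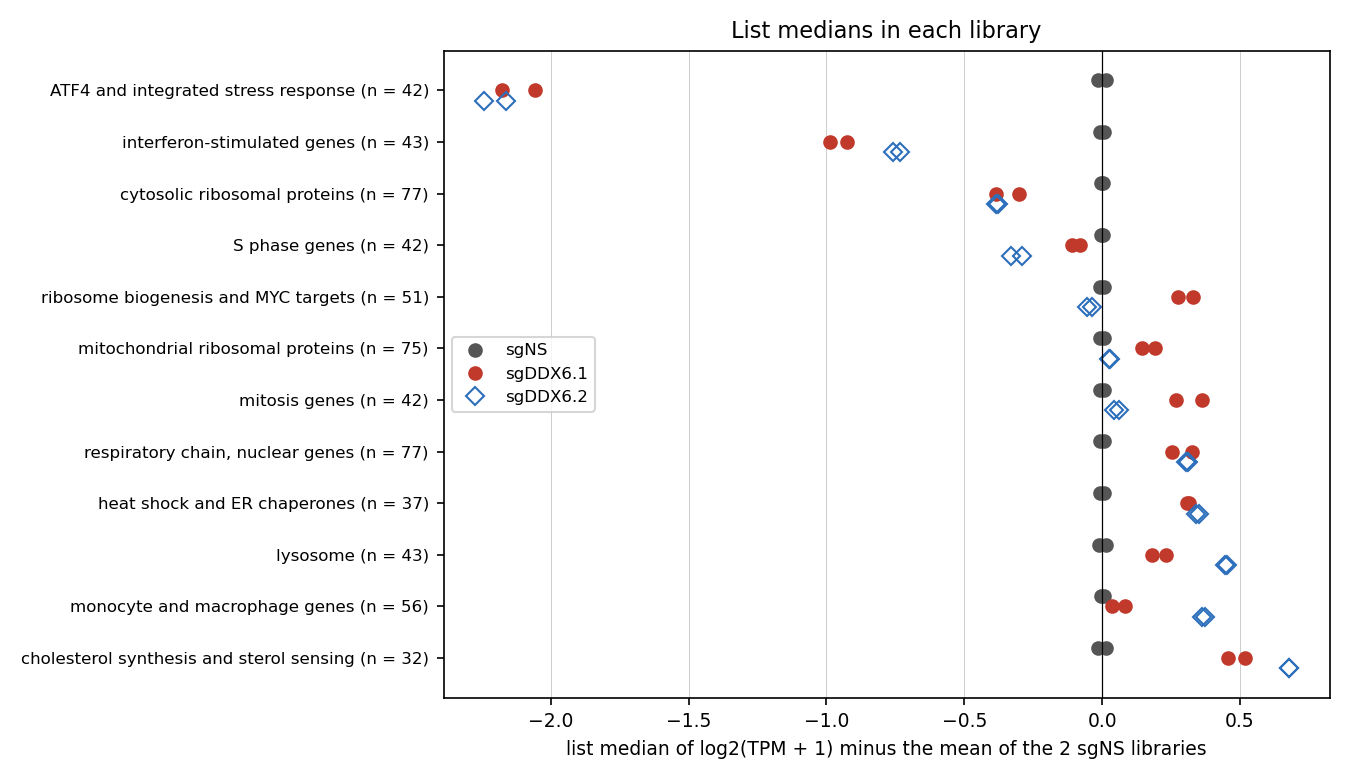
Median over the tested members of each gene list of log2(TPM + 1) minus the sgNS mean, for 12 of the lists, 1 point a library (grey sgNS, red sgDDX6.1, open blue diamonds sgDDX6.2). Libraries of a guide lie together, and the ATF4 list is near -2 in all 4 libraries with a DDX6 guide. The guides lie apart in several lists, among them the monocyte, lysosome, S phase, interferon, mitosis and ribosome biogenesis lists.

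Changes were also set against properties of the mRNA, over genes and as a description. With genes in 10 equal bins of transcript GC content, the median change rose from -0.12 in the lowest bin (31.8% to 38.9% GC) to 0.10 in the highest (62.4% to 74.6% GC), and the share of genes that rose went from 16.0% to 40.2%. The Spearman correlation over 10968 genes was 0.176, and for GC of the 3′ UTR alone over 10158 genes it was 0.177. The median transcript GC content was 52.2% for genes that rose and 46.7% for genes that fell. Mean TPM gave a Spearman correlation of 0.187 with the change. The filter used the level itself, and genes near 1 TPM may have passed it only through the group where they were higher, so nothing is read from that value. Length gave -0.06 for the transcript and -0.05 for the 3′ UTR. These genes share libraries, depth and base composition, which touch GC and level alike, and their part in the result was not tested. Removing the trend with GC left 7559 genes called, 6507 of them shared with the 6861. Around DDX6 itself, 13 of the 35 genes tested that start within 2 Mb rose and 9 fell (median 0.03). Of the 43 further out towards the end of the long arm of chromosome 11, 22 rose and 12 fell (median 0.15).

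**Figure D5:**
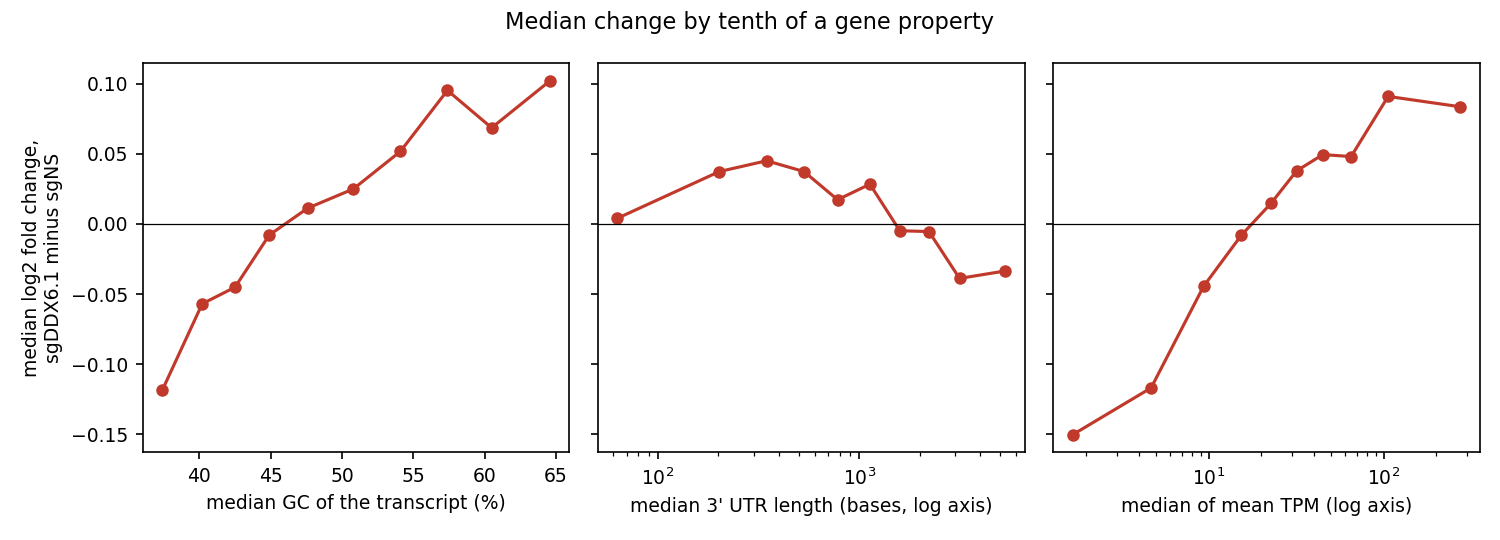
Median log2 fold change (sgDDX6.1 minus sgNS) in 10 equal bins of the genes tested, ordered by transcript GC content (percent), 3′ UTR length (bases, log axis) and mean TPM (log axis), 1 panel each and 1 point a bin. The medians climb from -0.12 to 0.10 with transcript GC content and from -0.15 to 0.08 with mean TPM, and lie between -0.04 and 0.05 with 3′ UTR length.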

How the data were processed

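The deposited table holds TPM per gene for 6 Mono-mac-6 libraries, 2 each of sgNS, sgDDX6.1 and sgDDX6.2. The authors made the TPM values with RSEM 1.2.31 on GRCh38, per the submitters' processing notes. Which aligner and annotation they used was not given in the sources used here, nor were the guide sequences. Each library's TPM sums to 1000000, so read depth is unknown and no count model was used.

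Genes with at least 1 TPM in at least 2 of the 4 sgNS and sgDDX6.1 libraries were tested on log2(TPM + 1) with limma 3.58.1 in R 4.3.3, with a mean for each of the 3 groups, 3 residual degrees of freedom, a variance trend, two-sided tests and Benjamini-Hochberg adjustment over 11036 genes at a threshold of 0.05. The contrasts set sgDDX6.1 against sgNS, and sgDDX6.2 against sgDDX6.1. The fit was tested on simulated data.

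The comparison and the 35 gene lists were chosen with earlier results of these data known. Genes named by rule were DDX6, the 15 largest changes each way (mean TPM of at least 5, groups not overlapping), up to 4 members of each list with the lowest p with its largest rise and fall, and the 6 largest differences each way between the guides. Other genes named were chosen after their values were seen. List members absent from the table were not analysed here. Some genes that the rule names are not reported here. Positions come from GENCODE 29, and promoters from RefSeq (GRCh38.p14). Alternatives covered pseudocount, filter, normalization, variance model, GC trend, replicate block and each library left out. Values in the text are TPM unless given as log2 fold changes.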

Additional observations from a re-analysis of the deposited data

Results flagged for a closer look

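Each gene below is named in the results or by the rule for named genes, passed the test of the difference between the guides (sgDDX6.2 minus sgDDX6.1, limma, adjusted over 11036 genes) and differed at least 2-fold. All were higher with sgDDX6.2, and the contrast shares the sgDDX6.1 libraries with the one against sgNS. In groups of 2 libraries no single library was tested as standing apart.

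Among interferon-stimulated genes, IFITM1 differed by 1.36, with 18.5 and 16.9 TPM with sgNS, 1.41 and 2.59 TPM with sgDDX6.1 and 6.45 and 6.65 TPM with sgDDX6.2. MX1 differed by 1.30, with 45.3 and 45.9 TPM with sgNS, 2.69 and 3.28 TPM with sgDDX6.1 and 8.59 and 8.99 TPM with sgDDX6.2. IFI6 differed by 1.13, with 97.6 and 101 TPM with sgNS, 24.6 and 26.6 TPM with sgDDX6.1 and 58.3 and 55.7 TPM with sgDDX6.2. In these 3 genes the sgDDX6.2 libraries lay between those of sgDDX6.1 and sgNS.

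SERPINI1, a serpin, differed by 1.79, with 13.2 and 12.98 TPM with sgNS, 10.8 and 10.3 TPM with sgDDX6.1 and 40.02 and 37.8 TPM with sgDDX6.2. HTRA3, a serine protease, differed by 1.71, with 6.42 and 7.16 TPM with sgNS, 8.23 and 7.7 TPM with sgDDX6.1 and 27.6 and 29.04 TPM with sgDDX6.2, and its sgDDX6.1 minus sgNS change lost its call in several settings, with an adjusted p from limma of up to 0.237 without sgNS replicate 1. GPX3, a secreted glutathione peroxidase, differed by 1.41, with 4.74 and 6.22 TPM with sgNS, 9.16 and 9.55 TPM with sgDDX6.1 and 26.6 and 26.5 TPM with sgDDX6.2. CD300C, a myeloid surface receptor, differed by 1.41, with 5.42 and 5.25 TPM with sgNS, 9.62 and 8.86 TPM with sgDDX6.1 and 26.5 and 25.9 TPM with sgDDX6.2. CREB3L1, a membrane-bound transcription factor, differed by 1.40, with 11.8 and 11.1 TPM with sgNS, 3.48 and 3.75 TPM with sgDDX6.1 and 11.1 and 11.3 TPM with sgDDX6.2. The cholesterol exporter ABCA1 differed by 1.63, with 7.01 and 6.34 TPM with sgNS, 1.17 and 1.22 TPM with sgDDX6.1 and 6.06 and 5.5 TPM with sgDDX6.2. CD8A, a marker of T cells at a low level in all libraries, differed by 1.11, with 3.54 and 3.39 TPM with sgNS, 0.99 and 0.92 TPM with sgDDX6.1 and 3.12 and 3.31 TPM with sgDDX6.2. It passed the filter only through the sgNS libraries, which favoured a low level with sgDDX6.1.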

How the results depend on the processing

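The alternatives were other pseudocounts, filters and normalizations, other ways of estimating the spread, removal of the GC trend, the 4 libraries alone, the replicate number as a block and each library left out, 17 in all. DDX6 and the 30 genes of largest change kept their direction and call under all 17, and all 198 genes named by the rule kept their direction. Apart from DDX6, the rule picked genes by call, size of change or low p in the fit reported above, which favours this outcome. The count of genes changed at least 2-fold was 586 with a pseudocount of 0.1 and 206 with a pseudocount of 5, against 378 with 1, since the pseudocount damps low genes. Leaving out a library gave 6080 to 6589 genes called, against 6861, and 2261 to 4061 between the guides, against 3898. These fits assume that the lone library of a group varies like the others. The split of rises against falls was 4335 to 3224 with the GC trend removed and 3752 to 3161 with quantile normalization, against 3541 to 3320. The medians of antigen presentation, translation factors, fatty acid metabolism, p53 targets and all genes changed sign in some settings, the last between -0.0165 and 0.045. The other list medians kept their sign. Some moved little, that of the ATF4 list between -2.18 and -1.89, and others moved by over 1.5 times. Examples of the latter follow. With a pseudocount of 5 the interferon-stimulated median was -0.62 and that of NF-kB -0.14. Without a filter, drug handling was at 0.09 and the chemokine and cytokine receptors at 0.09, and with a filter of 5 TPM monocyte and macrophage genes were at 0.21. Immediate early genes were at -0.0055 with quantile normalization, and the proteasome at 0.27 with the GC trend removed. The median of mRNA decay and P-body factors was 0.0008 without sgDDX6.1 replicate 1. Without sgNS replicate 1 and without sgDDX6.1 replicate 2, immediate early genes were at -0.05 and -0.07, and monocyte and macrophage genes at 0.08 in both. The replicate numbers pair the libraries by number only. Deviations of same-numbered libraries correlated at 0.269 between sgNS and sgDDX6.1, 0.113 between sgNS and sgDDX6.2 and 0.045 between the guides. With the replicate block 7396 genes were called, 6857 of them shared with the 6861, DDX6 was at -0.91, and 4758 differed between the guides. Depth is unknown for TPM values, so precision rests on the 2 libraries of each group, and genes near 1 TPM are the least certain.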

Other observations

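Of the 289 genes that fell at least 2-fold with sgDDX6.1, 87 were in a gene list, and of the 89 that rose at least 2-fold, 25 were. The genes and families in this section were chosen after their values were seen, from those outside the lists, so their counts are a description. TXNIP, an arrestin-fold protein that restrains glucose uptake, measured 486 and 469 TPM with sgNS and 122 and 114 TPM with sgDDX6.1 (-2.01 (SE 0.04)), and its relative ARRDC4 fell by 2.44. Of 5 genes of the arrestin-domain family, TXNIP included, 3 fell and 1 rose. Metabolic enzymes outside the lists fell from high levels too: ASS1, argininosuccinate synthase of arginine synthesis, measured 673 and 691 TPM with sgNS and 114 and 120.0 TPM with sgDDX6.1 (-2.53 (SE 0.04)), and the branched-chain aminotransferase BCAT1 fell by 1.73, the aspartate aminotransferase GOT1 by 1.53, the mitochondrial folate enzyme MTHFD1L by 1.45 and NAMPT of NAD synthesis by 1.25. The copper importer SLC31A1 fell by 1.61. PIM1, a growth kinase, measured 51.3 and 53.03 TPM with sgNS and 5.91 and 6.04 TPM with sgDDX6.1 (-2.93 (SE 0.07)). ULBP1, a ligand seen by natural killer cells, fell by 3.19, and the ER-phagy receptor CCPG1 by 2.86. All 4 homeobox genes of the DLX family tested fell, DLX2 by 3.44 and DLX1 by 1.93.

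Rises outside the lists included members of gene families. Of 11 tubulin genes 7 rose and 0 fell (median 0.47), with TUBB4B at 333 and 345 against 703 and 727 TPM in the sgNS against the sgDDX6.1 libraries (1.07), TUBA1C at 1.05 and TUBA4A at 1.01. Tubulin genes are similar in sequence, so reads may have been split between them. Of 9 annexins, which bind membranes in the presence of calcium, 7 rose and 0 fell (median 0.48), with ANXA2 at 1.06 and ANXA4 at 1.00. The complement protein C3 (1.17), the cannabinoid receptor CNR2 (1.54), carboxypeptidase M (CPM, 1.51) and the lysosomal fucosidase FUCA1 (1.15) also rose. Of 359 zinc finger genes named ZNF, 58 rose and 92 fell, with a median of -0.03 against 0.01 over all genes.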
